A study of Homo sapiens with 12 samples.

Results

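The genes described here are 10 antagonists and feedback targets of the WNT pathway: DACT1, AXIN2, NKD1, RNF43, ZNRF3, DKK1, LGR5, LEF1, TCF7 and SP5. They were found by symbol among the 28008 genes counted in each cell line, and all 10 were present in both count tables. They were selected on their measured levels and their response to doxycycline (DOX) in these same libraries. Their levels and changes are therefore given as a description with no test. Most values have their spread or error beside them, and ratios of levels between the lines do not. QGP-1 and BON-1 are established human lines from pancreatic neuroendocrine tumors. Each line carried tet-MUC1shRNA, a puromycin-selected lentiviral hairpin against MUC1 that DOX switches on. Cells received 0.1% DMSO as vehicle or 500 ng/mL DOX for 7 days, and RNA-seq gave 3 libraries in each of 4 groups, 12 in all. QGP-1 cells were kept in RPMI and BON-1 cells in a DMEM/F-12 mixture, and vehicle and DOX cells of 1 line carried the same hairpin. A single hairpin was analysed here, and control-hairpin cells given DOX were not analysed here, so an action of DOX itself and silencing of MUC1 cannot be told apart.

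WNT ligands bind Frizzled receptors with LRP5 or LRP6, which stops the destruction complex from degrading beta-catenin. Beta-catenin then enters the nucleus, binds the TCF/LEF factors and switches on target genes. Several of those targets encode brakes on the same pathway, which makes a negative feedback loop, and AXIN2 is the target most often read as a measure of pathway activity.

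MUC1 was lower with DOX in every library, with a log2 fold change of -2.91 for QGP-1 and -2.79 for BON-1 cells. Library totals lay between 38224144 and 50525926 counts in QGP-1 and between 15981954 and 28484324 in BON-1 cells. Of 6 neuroendocrine markers, 6 had a mean normalized level above 1 CPM (counts scaled by TMM to a common library size) in QGP-1 and 5 in BON-1, where NCAM1 was near 0 at 0.0607 CPM with vehicle. The summed level of the 6 markers went from 7740 to 10717 CPM with vehicle to 3877 to 4528 CPM with DOX in BON-1 cells. CHGA was the largest part of that sum, with means of 8104 and 2936 CPM. CHGB went from 560 to 618 CPM there, INSM1 from 638 to 616, SYP from 35.0 to 27.8 and ENO2 from 33.9 to 30.7. In QGP-1 cells the sum went from 685 to 707 CPM to 765 to 849 CPM, while NCAM1 alone went down, from 60.7 to 42.6 CPM. Summed leukocyte markers, nearly all from CD68, went from 23.7 to 26.4 CPM to 48.5 to 53.0 CPM in BON-1 cells, while PTPRC and CD3E had means of at most 0.0856 CPM in either line. Summed fibroblast markers went from 5.22 to 6.65 CPM to 10.6 to 11.6 CPM in BON-1 cells, led by LUM, and the other 4 of 5 had means of at most 0.275 CPM. In QGP-1 cells the same sums went from 0.577 to 1.47 CPM to 1.19 to 1.93 CPM for leukocytes, and from 1.81 to 3.42 CPM to 0.976 to 1.29 CPM for fibroblasts, led by COL1A1. The 2 endothelial markers did not reach a mean of 1 CPM in either line. The part of these shifts in the values below was not tested, and in bulk RNA fewer cells of a kind and less RNA per cell cannot be told apart.

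Of the 10 genes, 6 had promoter windows in the RefSeq table used here (GRCh38.p14), each reaching from 250 bases before to 50 after a transcript start. They are shown because TCF/LEF factors bind the letters CTTTGAT and, in a shorter form, CTTTGA. The 6 genes had 10 windows, and the shorter form was in 1 window each of DACT1, DKK1 and SP5, on either strand. Of all 35116 promoter windows of the table, 12.9% held it, a share per window and not per gene. The longer form, which contains the shorter, was in the SP5 window alone, against 2.62% of all promoters. Capitals mark the matches, with TCAAAG being CTTTGA read on the other strand. The windows are chr14:58633811-58634110 for DACT1, chr10:52314031-52314330 for DKK1 and chr2:170715087-170715386 for SP5, all on the plus strand.
DACT1: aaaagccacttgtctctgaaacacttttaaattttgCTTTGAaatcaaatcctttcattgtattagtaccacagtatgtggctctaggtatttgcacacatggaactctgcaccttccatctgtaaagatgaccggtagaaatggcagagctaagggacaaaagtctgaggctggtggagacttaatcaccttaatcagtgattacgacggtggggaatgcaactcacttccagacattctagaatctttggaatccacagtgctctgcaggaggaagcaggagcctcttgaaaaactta
DKK1: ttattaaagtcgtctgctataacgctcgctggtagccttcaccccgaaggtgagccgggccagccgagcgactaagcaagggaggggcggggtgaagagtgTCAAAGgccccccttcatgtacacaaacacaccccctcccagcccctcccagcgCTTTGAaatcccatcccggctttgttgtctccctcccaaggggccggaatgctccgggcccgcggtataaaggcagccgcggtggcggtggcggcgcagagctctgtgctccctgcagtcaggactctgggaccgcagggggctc
SP5: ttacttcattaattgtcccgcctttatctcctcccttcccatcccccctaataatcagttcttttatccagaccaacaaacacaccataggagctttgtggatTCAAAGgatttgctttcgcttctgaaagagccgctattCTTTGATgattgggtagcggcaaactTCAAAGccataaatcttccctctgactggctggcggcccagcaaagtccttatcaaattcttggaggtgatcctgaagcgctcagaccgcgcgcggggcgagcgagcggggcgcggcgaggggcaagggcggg
The DACT1 window is 1 of 3 listed for that gene, and its match lay 214 bases upstream of the start. The 2 matches of DKK1 lay 149 and 95 bases upstream, and the 3 of SP5 lay 147, 109 and 83 bases upstream. In the windows of RNF43, LEF1 and TCF7 these letters did not occur. AXIN2, NKD1, ZNRF3 and LGR5 had no entry. Within 5001 bases centred on the gene start in GENCODE v44 (GRCh38), 9 of the 10 genes held at least 1 CTTTGAT, against 43.1% of 19962 protein-coding genes. RNF43 had the most, with 4, DACT1 and NKD1 had 3 each, and ZNRF3 had 0. A match in a window is a string of letters and does not show that a factor binds there.

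In QGP-1 cells, 2 of the 10 genes were called higher after DOX (edgeR adjusted p below 0.05 over all genes tested) and 0 lower, and over all 15089 genes tested 17.3% were called higher and 17.7% lower, 35.0% in all. In BON-1 cells 4 were called higher and 2 lower, with 17.0% and 18.3%, or 35.3% in all, over all 14625 genes. The libraries of the 2 treatments did not overlap for 4 of the 10 genes in QGP-1 and for 8 of the 10 in BON-1 cells, where 46.7% and 46.3% of all genes tested showed no overlap. Nothing is read from these counts, because the genes were chosen with the contrast known, and they are no test of the genes. The median log2 fold change was -0.08 for the 10 genes and -0.01 for all genes in QGP-1, and -0.04 and -0.01 in BON-1 cells. The median absolute log2 fold change was 0.33 against 0.26 over all genes in QGP-1 and 0.78 against 0.26 in BON-1 cells. All 10 genes passed the filter on low counts in both lines, but DKK1 in QGP-1 passed through its vehicle libraries alone. AXIN2 in BON-1 had 1 DOX library above the filter's cutoff of 0.508 CPM. That cutoff is on CPM from plain library totals, without the TMM scaling of the CPM given elsewhere.

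**Figure D1:**
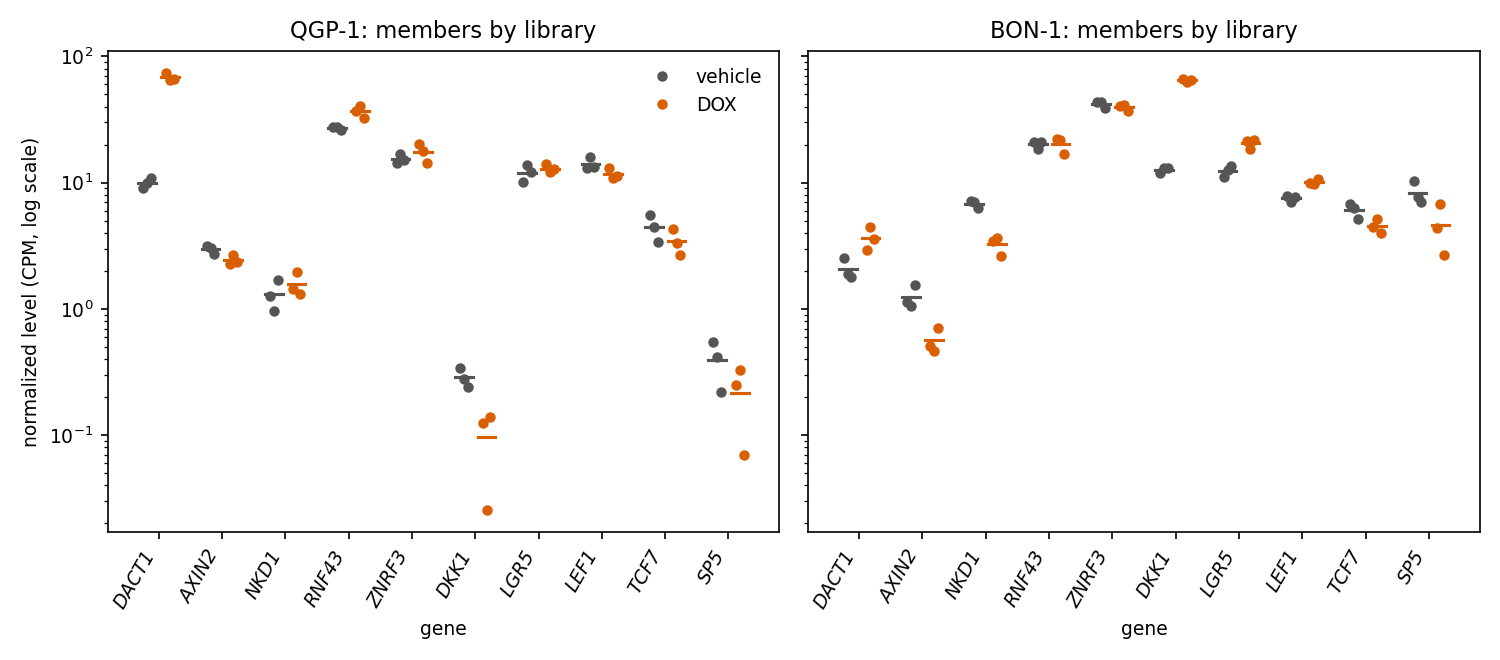
Normalized level of each gene in each library, in CPM on a log axis, for QGP-1 cells on the left and BON-1 cells on the right, with gray points for vehicle, orange points for DOX and a bar at each group's mean. DACT1 in QGP-1 and DKK1 in BON-1 cells stand farthest apart between the treatments, with means of 10.0 and 68.6 CPM and of 12.7 and 64.8 CPM.

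DACT1 binds Dishevelled, the adaptor between Frizzled and the destruction complex, and can dampen WNT signaling. The gene lies on chromosome 14, from 58633967 to 58648321 of GRCh38, on the plus strand. In QGP-1 cells it had 349, 430 and 544 counts with vehicle and 3590, 2587 and 2834 with DOX, or 9.15, 9.95 and 10.9 CPM and 74.4, 65.6 and 65.9 CPM. The lowest DOX library was thus far above the highest vehicle library. The log2 fold change was 2.77 (SE 0.10, 95% interval 2.56 to 2.99), which is 6.84-fold. In BON-1 cells the counts were 71, 43 and 32 with vehicle and 46, 86 and 71 with DOX, or 2.52, 1.91 and 1.78 CPM and 2.95, 4.47 and 3.61 CPM. The groups did not overlap there either, but the gap was narrow, and the log2 fold change was 0.82 (SE 0.29, 95% interval 0.23 to 1.41). Over the 6 fits that each left out 1 BON-1 library it ranged from 0.65 to 1.00. With limma on log2(TPM + 1) it was 0.46, where the means were 1.05 TPM with vehicle and 1.83 TPM with DOX. At such low levels the added 1 draws a log2 fold change toward 0.

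NKD1 and AXIN2 are inhibitors inside the cell and also targets of beta-catenin. NKD1 (chromosome 16, 50548396 to 50649249, plus strand) encodes a protein that binds Dishevelled. In BON-1 cells its level was 7.21, 7.01 and 6.28 CPM with vehicle and 3.47, 3.64 and 2.65 CPM with DOX, from 203, 158 and 113 counts and 54, 70 and 52 counts. Every DOX library was below every vehicle library, the log2 fold change was -1.08 (SE 0.22, 95% interval -1.52 to -0.63), and the vehicle level was 2.11-fold the DOX level. In QGP-1 cells NKD1 had 1.26, 0.972 and 1.69 CPM with vehicle and 1.45, 1.95 and 1.32 CPM with DOX. The groups overlapped and the interval of the log2 fold change, -0.41 to 0.93, included 0.

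AXIN2 (chromosome 17, 65528563 to 65561648, minus strand) is a scaffold of the destruction complex. In QGP-1 cells it had 120, 131 and 135 counts with vehicle and 110, 105 and 101 with DOX, or 3.15, 3.03 and 2.71 CPM and 2.28, 2.66 and 2.35 CPM. The groups did not overlap, but by little, and the log2 fold change was -0.29 (SE 0.21, 95% interval -0.73 to 0.16). On the TPM scale it was 0.02, where the median of all QGP-1 genes stood at 0.29. In BON-1 cells AXIN2 was scarce, with 32, 24 and 28 counts with vehicle and 8, 9 and 14 with DOX, or 1.14, 1.06 and 1.56 CPM and 0.513, 0.468 and 0.713 CPM. All DOX libraries were below all vehicle libraries, with a log2 fold change of -1.12 (SE 0.48, 95% interval -2.10 to -0.14). AXIN2 was nevertheless not called in BON-1 cells. Of 11 alternative fits 1 called it, the joint fit of both lines, and 0 of the 6 that left out 1 library did.

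RNF43 and ZNRF3 are membrane ubiquitin ligases that take Frizzled receptors off the cell surface. RNF43 (chromosome 17, 58353676 to 58417595, minus strand) had 27.7, 27.6 and 26.3 CPM with vehicle and 36.7, 40.8 and 32.8 CPM with DOX in QGP-1 cells. The 3 DOX libraries were above the 3 vehicle libraries, with a log2 fold change of 0.44 (SE 0.09, 95% interval 0.23 to 0.64), or 1.35-fold. In BON-1 cells RNF43 had 20.2 ± 1.55 CPM (SD, n = 3) with vehicle and 20.2 ± 3.0 CPM with DOX, with overlap and an interval of -0.26 to 0.26 for the log2 fold change. ZNRF3 (chromosome 22, 28883572 to 29057488, plus strand) overlapped between treatments in both lines. It had 15.5 ± 1.34 CPM with vehicle and 17.4 ± 2.86 CPM with DOX in QGP-1, and 42.0 ± 2.58 and 39.8 ± 2.24 CPM in BON-1 cells. The 95% intervals of its log2 fold change were -0.10 to 0.44 and -0.27 to 0.11.

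LGR5 (chromosome 12, 71439798 to 71586310, plus strand) is a receptor for R-spondins, which relieve the brake set by RNF43 and ZNRF3. In BON-1 cells it had 11.1, 12.7 and 13.4 CPM with vehicle and 21.4, 18.4 and 21.9 CPM with DOX, from 242 to 312 and 334 to 430 counts. The groups were well apart, with a log2 fold change of 0.73 (SE 0.13, 95% interval 0.46 to 1.01), or 1.66-fold. In QGP-1 cells it had 12 ± 1.82 CPM with vehicle and 13.0 ± 0.954 CPM with DOX, and the groups overlapped. TSPAN8, a gene on the opposite strand that overlaps the LGR5 locus with 0 shared exon bases, had 10406 to 18980 counts in BON-1 and 22356 to 70645 in QGP-1 libraries, and its log2 fold changes were 0.80 and -1.05. Whether the counting used strand is not given in the sources used here, and the part of TSPAN8 reads in the LGR5 values was not tested.

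DKK1 (chromosome 10, 52314281 to 52318042, plus strand) is secreted and blocks the coreceptors LRP5 and LRP6. In BON-1 cells it had 338, 293 and 234 counts with vehicle and 1037, 1200 and 1284 with DOX, or 12, 13.0 and 13.0 CPM and 66.6, 62.4 and 65.3 CPM. The libraries of a group lay close together and the groups far apart, with a log2 fold change of 2.36 (SE 0.10, 95% interval 2.15 to 2.56), or 5.12-fold. In QGP-1 cells DKK1 was nearly absent, with 13, 12 and 12 counts with vehicle and 6, 1 and 6 with DOX, or 0.341, 0.278 and 0.241 CPM and 0.124, 0.0253 and 0.139 CPM. These few counts did not overlap, and the log2 fold change was -1.51 (SE 0.71, 95% interval -3.02 to 0.01). Without DOX replicate 2, which had the single count, it was -1.10.

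LEF1 and TCF7 encode the DNA-binding partners of beta-catenin and are themselves targets of the pathway. LEF1 (chromosome 4, 108047545 to 108168956, minus strand) had 7.78, 7.05 and 7.72 CPM with vehicle and 9.88, 9.78 and 10.7 CPM with DOX in BON-1 cells. The DOX libraries were all higher, with a log2 fold change of 0.43 (SE 0.17, 95% interval 0.09 to 0.77). Over 13 alternative fits the value stayed between 0.32 and 0.45, but LEF1 was called in only 2 of them. In QGP-1 cells LEF1 had 14.1 ± 1.63 CPM with vehicle and 11.7 ± 1.21 CPM with DOX, with overlap and a log2 fold change of -0.27 (SE 0.12), or 0.05 on the TPM scale. TCF7 (chromosome 5, 134114681 to 134151865, plus strand) had a lower mean with DOX in both lines. Its level went from 4.48 ± 1.07 to 3.46 ± 0.824 CPM in QGP-1, with overlap, and from 6.10 ± 0.834 to 4.54 ± 0.591 CPM in BON-1 cells, with none. Its log2 fold changes were -0.37 (SE 0.22) and -0.43 (SE 0.21). SKP1, on the opposite strand, shares 2.08% of the TCF7 exon bases. SKP1 had 13271 to 21752 counts in QGP-1 and 5039 to 7022 in BON-1 libraries, with log2 fold changes of 0.03 and 0.40. The part of SKP1 reads in the TCF7 values was not tested.

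SP5 (chromosome 2, 170715337 to 170718078, plus strand) encodes a zinc finger factor switched on directly by beta-catenin. In BON-1 cells it had 290, 173 and 126 counts with vehicle and 68, 130 and 53 with DOX, or 10.3, 7.67 and 7.0 CPM and 4.36, 6.76 and 2.70 CPM. The groups did not overlap, but the highest DOX library came close to the lowest vehicle library. The log2 fold change was -0.86 (SE 0.24, 95% interval -1.35 to -0.37), and without vehicle replicate 1, the highest library, it was -0.67. In QGP-1 cells SP5 had 21, 18 and 11 counts with vehicle and 12, 13 and 3 with DOX, with overlap and a wide interval of -2.24 to 0.53.

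**Figure D2:**
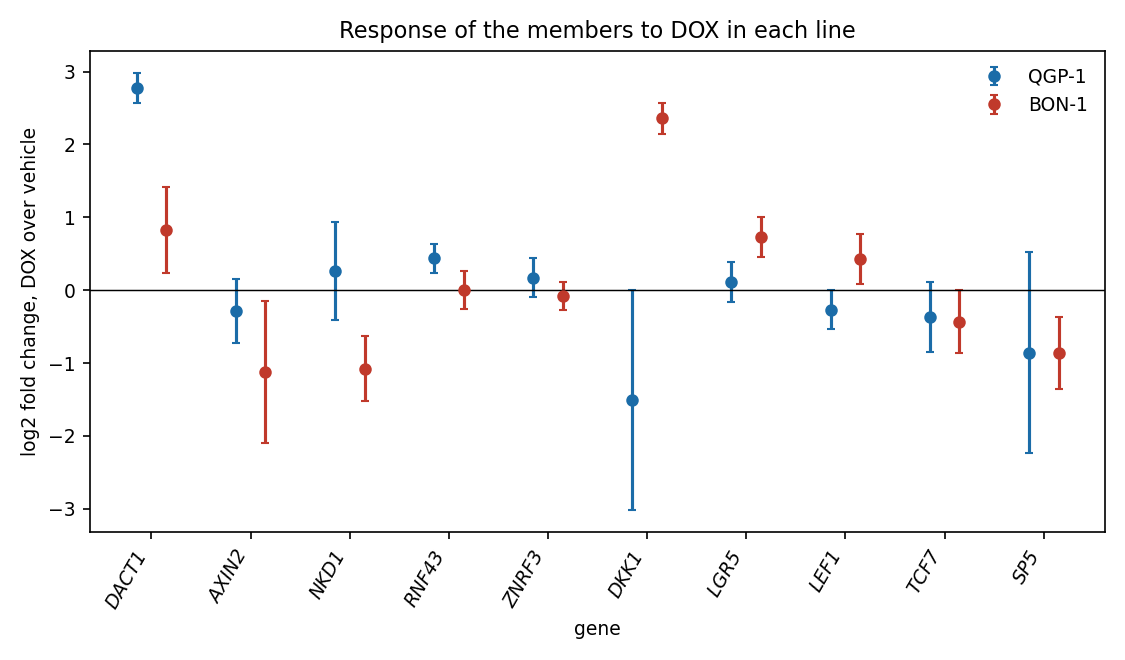
Log2 fold change of each gene, DOX over vehicle, with its 95% interval from edgeR, in blue for QGP-1 and in red for BON-1 cells (3 against 3 libraries in each line). DACT1 has the highest value in QGP-1 (2.77) and DKK1 in BON-1 cells (2.36), while ZNRF3 lies near 0 in both (0.17 and -0.08).

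The responses of the 2 lines were set side by side from the separate fits, with the errors added in quadrature, again as a description of values the genes were selected on. The DACT1 response was lower in BON-1 than in QGP-1 cells by a log2 difference of -1.95 (SE 0.31, 95% interval -2.55 to -1.35), and that of NKD1 by -1.34 (SE 0.38). RNF43 differed by -0.43 (SE 0.16). In the other direction, LEF1 differed by 0.70 (SE 0.21) and LGR5 by 0.62 (SE 0.19). DKK1 differed by 3.86 (SE 0.71), where its QGP-1 value rests on a gene that passed the count filter through the vehicle libraries alone. For AXIN2 the difference was -0.84 (95% interval -1.86 to 0.18), for ZNRF3 -0.25 (-0.56 to 0.06), for TCF7 -0.07 (-0.67 to 0.54) and for SP5 -0.00 (-1.35 to 1.34). The intervals of AXIN2 and SP5 were wide, and AXIN2 in BON-1 and SP5 in QGP-1 cells had few counts.

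Basal levels differed between the lines as well. With vehicle, the CPM of DKK1 was 44.2-fold, of SP5 21.0-fold, of NKD1 5.23-fold, of ZNRF3 2.71-fold and of TCF7 1.36-fold higher in BON-1 than in QGP-1 cells. DACT1 was 4.84-fold, AXIN2 2.37-fold, LEF1 1.87-fold and RNF43 1.35-fold higher in QGP-1 cells, and LGR5 was close to even at 1.03-fold. The lines were tabled separately and grown in different media, so these ratios carry both the line and its medium. TMM was fitted within each line, so the ratios have no shared TMM scale, and they are given without an error. In QGP-1 vehicle libraries DKK1 had 12 to 13 counts and SP5 11 to 21.

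Levels of different genes were compared per length, within a line, with TPM rescaled after 3 small noncoding RNAs (RN7SK, RN7SL1 and RN7SL2) were left out. Those RNAs took 71.2% to 80.3% of the deposited TPM in QGP-1 and 50.9% to 74.3% in BON-1 libraries. In QGP-1 cells with vehicle, RNF43 came first at 8.48 ± 0.552 TPM (SD, n = 3), followed by LEF1 at 6.34 ± 0.805. LGR5, DACT1 and ZNRF3 came next, between 4.12 and 4.49 TPM, and their libraries overlapped. TCF7 (1.92) and AXIN2 (1.30) overlapped with each other, as did SP5 (0.417), DKK1 (0.308) and NKD1 (0.266) from one to the next. With DOX, DACT1 was first at 36.0 ± 1.60 TPM, ahead of RNF43 at 14.4 ± 1.83, and DKK1 was last at 0.128.

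In BON-1 cells with vehicle the order was led by DKK1 at 16.5 ± 1.05 TPM, then ZNRF3 (13.6) and SP5 (10.5), which overlapped. RNF43 (7.63), LGR5 (5.65), LEF1 (4.10), TCF7 (3.16), NKD1 (1.70), DACT1 (1.05) and AXIN2 (0.665) followed with no overlap between neighbors. With DOX, DKK1 stood at 81.9 ± 5.06 TPM, with ZNRF3 next at 12.5 and then LGR5 at 9.12, and AXIN2 was again last at 0.294.

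**Figure D3:**
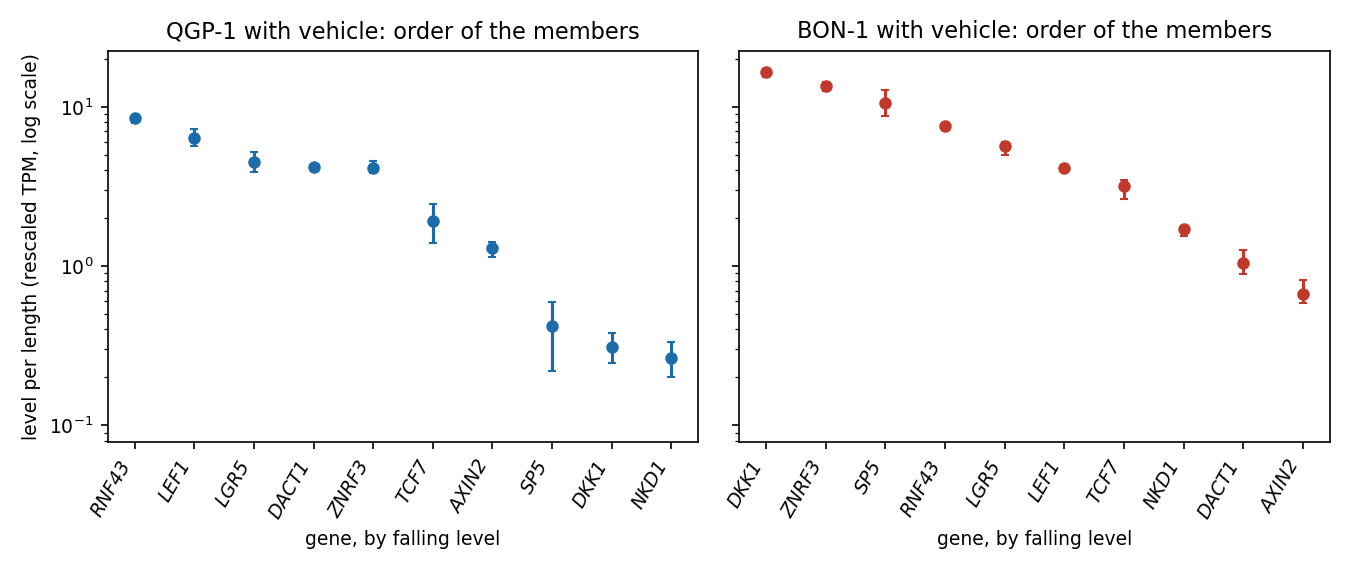
Level per length of each gene in vehicle libraries, in TPM rescaled without the 3 small RNAs on a log axis, in falling order for QGP-1 on the left and BON-1 on the right, with points at the mean and bars from the lowest to the highest of 3 libraries. RNF43 leads in QGP-1 cells (8.48) and DKK1 in BON-1 cells (16.5), while DKK1 is among the lowest in QGP-1 (0.308).

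The genes whose log2 CPM followed DACT1, AXIN2 and DKK1 most closely over the 12 libraries were found by Pearson's r, as a description in which the gap between the lines weighs heavily. For DACT1 these were POLR1B (r = 0.990), SAMD8 (0.990) and ID2 (0.987). Their responses to DOX (log2) were 0.46, 0.50 and 0.64 in QGP-1 and 0.18, 0.25 and 0.31 in BON-1 cells. For AXIN2 they were SH2B2 (0.990), TTF1 (0.987) and SHANK3 (0.986). These had responses of -0.22, -0.24 and -0.27 in QGP-1 and -0.71, -0.67 and -1.62 in BON-1 cells. DKK1 was followed most closely by GLRX (0.996), RETREG1 (0.994) and PLOD2 (0.994), with responses to DOX of -0.31, -0.48 and -0.26 (log2) for QGP-1 and 0.88, 0.71 and 0.75 in BON-1 cells.

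The rest of the pathway was read from a list of 91 other WNT genes. In QGP-1 cells 63 could be tested, of which 11 fell and 17 rose, and in BON-1 cells 55 could be tested, of which 17 fell and 14 rose (edgeR, adjusted over all genes tested). As a share of all genes tested, 17.7% were called lower and 17.3% higher in QGP-1, and 18.3% and 17.0% in BON-1 cells, and the smaller groups below stand against the same shares. Their median log2 fold changes were -0.04 and -0.12. Of the intracellular antagonists outside the 10 genes, 1 of 5 fell and 0 rose in QGP-1, and 2 of 4 fell and 1 rose in BON-1 cells. Of the secreted or membrane antagonists, 3 of 7 fell and 1 rose in QGP-1, and 2 of 5 fell and 0 rose in BON-1 cells. By the counts, among 50 genes tested in both lines, 3 fell in both (CTNNB1, NKD2 and TLE2) and 9 rose in both. Another 2 moved in opposite directions (WNT5A and WNT7B). The share of all genes called in both lines is not given here, so nothing is read from these counts. CTNNB1 and WNT5A are named after their values were seen. CTNNB1, which encodes beta-catenin itself, was lower by log2 values of -0.22 (adjusted p = 0.0157) for QGP-1 and -0.58 (adjusted p = 8.12e-07) in BON-1 cells by edgeR. Its QGP-1 value turned to 0.11 on the TPM scale, uncalled, where the median of all genes was 0.29, and the call was lost without vehicle replicate 2 (-0.22) or DOX replicate 3 (-0.20). WNT5A, a ligand, had log2 values of 0.23 (edgeR adjusted p = 0.0386) for QGP-1 and -0.55 (edgeR adjusted p = 9.77e-05) for BON-1 cells, and the first was lost without QGP-1 vehicle replicate 1 (0.23) or 2 (0.20) or DOX replicate 2 (0.22) or 3 (0.18).

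NKD2 and DACT2 are the paralogs of NKD1 and DACT1. By edgeR, NKD2 fell with log2 values of -0.55 (SE 0.20, adjusted p = 0.0486) in QGP-1 and -1.58 (SE 0.43, adjusted p = 0.00512) in BON-1 cells. The first of these calls was lost in 10 of 13 alternatives, and the second without BON-1 vehicle replicate 2, where the value was -1.33. DACT2 moved from 28, 17 and 16 counts to 4, 5 and 3 in BON-1 cells, a log2 fold change of -1.97 (SE 0.60, edgeR adjusted p = 0.0114), while DACT1 was higher with DOX there. That call was lost without vehicle replicate 1, at -1.86, and in QGP-1 cells DACT2 did not pass the threshold (-0.61, SE 0.46). TLE2, a corepressor that binds TCF/LEF factors, fell in both lines, with log2 values of -0.80 (SE 0.11, edgeR adjusted p = 0.000116) in QGP-1 and -2.30 (SE 0.31, edgeR adjusted p = 1.55e-06) in BON-1 cells. TLE4, another corepressor, rose in BON-1 cells by 0.96 (SE 0.12, edgeR adjusted p = 1.9e-07), and its QGP-1 value of 0.60 overlapped between treatments and lost its call in 5 of 13 alternatives. TCF7L1, a TCF factor that mostly represses, had 30, 21 and 15 counts with vehicle and 4, 9 and 3 with DOX in BON-1 cells (-1.67, SE 0.58, edgeR adjusted p = 0.0240), lost its call in 5 of 11 alternatives and was too low to test in QGP-1 cells.

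At the cell surface, the receptor FZD1 rose in QGP-1 cells by a log2 fold change of 1.19 (SE 0.07, edgeR adjusted p = 9.04e-08) and in BON-1 cells by 0.34 (SE 0.09, edgeR adjusted p = 0.00304), the latter lost without vehicle replicate 2, at 0.23. FZD8, another Frizzled receptor, fell in QGP-1 cells (-0.88, SE 0.16, edgeR adjusted p = 0.00088) and was too low to test in BON-1 cells. Of the extracellular and membrane antagonists, APCDD1 rose (1.03, SE 0.16, edgeR adjusted p = 0.000222) and KREMEN1, which binds DKK proteins, fell (-1.0, SE 0.19, edgeR adjusted p = 0.00103) in QGP-1 cells, and both missed the threshold in BON-1 cells (0.37, SE 0.23, and -0.50, SE 0.32). SOSTDC1, a secreted antagonist, went from 33, 50 and 65 counts to 21, 14 and 23 in QGP-1 cells (-1.33, SE 0.41, edgeR adjusted p = 0.0216), with 4 of 12 alternatives losing the call, and had 0 counts in all 6 BON-1 libraries, which allows up to 3 counts per library. The ligand WNT7B had 55, 58 and 63 counts with vehicle and 184, 179 and 157 with DOX in BON-1 cells, a rise of 1.88 (SE 0.23, edgeR adjusted p = 2.74e-07). In QGP-1 cells WNT7B had a log2 fold change of -0.86 (SE 0.30, edgeR adjusted p = 0.0374), a call lost in 5 of 13 alternatives, among them the fit without vehicle replicate 1 (-0.47).

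In ligand secretion and the destruction complex, PORCN, which lipidates WNT ligands, rose in QGP-1 cells (0.63, SE 0.14, edgeR adjusted p = 0.00353) and did not pass in BON-1 cells (0.28, SE 0.24). APC, a scaffold of the destruction complex, rose in both lines, by 0.54 (SE 0.06, edgeR adjusted p = 2.11e-05) in QGP-1 and 0.62 (SE 0.08, edgeR adjusted p = 4.51e-07) in BON-1 cells. TNKS, which marks axin for degradation, rose by 0.37 (SE 0.08, edgeR adjusted p = 0.000779) in BON-1 cells. Its QGP-1 value was 0.23 (SE 0.08, edgeR adjusted p = 0.0425), a call lost without vehicle replicate 2 or 3 or DOX replicate 2 or 3. The interaction of line and DOX, fitted in edgeR, called 16 of 69 other WNT genes, where 16.7% of all 16598 genes were called.

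**Figure D4:**
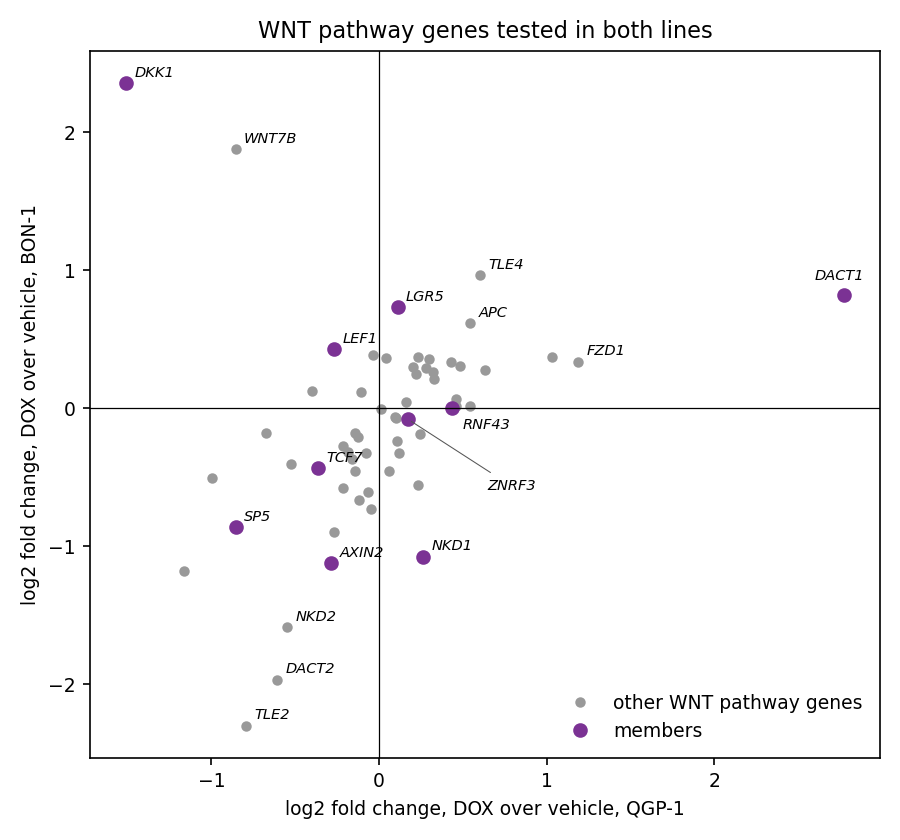
Log2 fold change, DOX over vehicle, of each WNT gene tested in both lines, QGP-1 on the horizontal and BON-1 on the vertical axis, with the 10 genes described here as large purple points and the other WNT pathway genes in gray. DKK1 and WNT7B lie at the upper left, lower in QGP-1 and higher in BON-1 cells, and DACT1 lies farthest to the right at 2.77 and 0.82.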

How the data were processed

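RNA-seq was done by the authors on 12 libraries of QGP-1 and BON-1 cells, in triplicate cultures per group per the labels. The authors aligned reads to GRCh38 (hg38) with STAR and deposited raw counts per gene for each line, with no normalization, and a TPM table. The submitters' processing notes also name DESeq2. The counting program and its use of strand are not given in the sources used here. The number of deposited sample columns not used is 0.

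Counts of each line were fitted over all genes with edgeR 4.0.16 in R 4.3.3 (default filter on low counts with a minimum of 10, TMM, quasi-likelihood test, Benjamini-Hochberg adjustment, threshold 0.05). CPM values use TMM-scaled library sizes. The depth makes counting error small except for genes with few counts. Where a gene had 0 counts, 3 counts were taken as the limit at 95%, for counting error only. The deposited TPM were rescaled without RN7SK, RN7SL1 and RN7SL2 and served for order within a line. The interaction of line and DOX used all 12 libraries. P-values measure the spread between these cultures.

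The 10 genes, the list of 91 other WNT genes (TLE5 is listed as AES in the files and was matched through RefSeq synonyms) and the tests were chosen with earlier results of these data known. Named beyond the 10 genes and MUC1 were, in each line, up to 4 called and non-overlapping list genes with the most positive and 4 with the most negative log2 fold change, also given in the other line, and 3 genes most correlated with DACT1, AXIN2 and DKK1. Positions come from GENCODE v44 and promoter sequences from RefSeq GRCh38.p14, while the files hold no coordinates. Alternatives were DESeq2 1.42.0, plain library sizes, no low-count filter, a floor of 10 counts per library, replicate blocks, a joint fit of both lines, limma 3.58.1 on log2(TPM + 1) where mean TPM reached 1, and leaving out each library. Alternatives for the interaction were added after seeing the data. The code was tested on simulated counts.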

Additional observations from a re-analysis of the deposited data

Results flagged for a closer look

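DKK1 had log2 fold changes of opposite sign in the lines, -1.51 in QGP-1 and 2.36 in BON-1 cells, with no overlap between vehicle and DOX libraries in either line. The difference was not tested, and the QGP-1 value rests on 1 to 13 counts per library. In QGP-1 cells DKK1 passed the count filter through the vehicle libraries alone. It was not called there, and the 95% interval of -3.02 to 0.01 included 0.

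The interaction test in edgeR (3 libraries in each group) called 16 of 69 other WNT genes, against 16.7% of all 16598 genes. Only 5 of the 16, those also named above, are given here, and some of the rest had smaller adjusted p-values than CTNNB1. The log2 difference, BON-1 minus QGP-1, was 2.74 (SE 0.39, adjusted p = 3.11e-05) for WNT7B, -0.84 (SE 0.12, adjusted p = 3.49e-05) for FZD1 and -1.51 (SE 0.28, adjusted p = 0.000475) for TLE2. By the same edgeR test it was -0.77 (SE 0.13, adjusted p = 0.000163) for WNT5A and -0.36 (SE 0.10, adjusted p = 0.0143) for CTNNB1, both named after their values were seen. Groups of 3 libraries are too small for a check of single outlying libraries.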

How the results depend on the processing

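Of the other WNT genes called, 28 in QGP-1 and 31 in BON-1 cells, CTNNB1 (-0.22 against 0.11) and PYGO2 in QGP-1 turned sign with limma on TPM, uncalled there, and no other did under the alternatives that fitted it. Counts of calls among the 10 genes describe the fits and support nothing, since the genes were selected on these values. In QGP-1 cells 0 of the 10 were called lower, against 1 (DKK1) with both lines in 1 fit and 0 to 1 (LEF1, without DOX replicate 1) with 1 library left out. Called higher there were 2, also 2 to 2 with 1 library left out, and 4 with limma on rescaled TPM. In BON-1 cells 2 were called lower, against 3 with both lines in 1 fit, where AXIN2 was added. With 1 library left out, 1 to 2 were called lower (SP5 not without vehicle replicate 1). Called higher there were 4, against 2 with limma on TPM and 2 to 3 with 1 library left out (LEF1 in none of these, and DACT1 not without vehicle or DOX replicate 2 or 3). Of the other WNT genes, 11 were lower in QGP-1 cells, against 3 with limma on TPM and 7 to 10 with 1 library left out (7 without vehicle replicate 2 or DOX replicate 2), and 17 were higher, against 28 and 12 to 16. In BON-1 cells 14 were higher, against 5 with limma on TPM and 10 to 13 with 1 library left out, and 17 were lower, against 12 to 16. The interaction called 16, and 12 to 17 with 1 library left out.

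The TPM scale moved the median response over all genes to 0.29 (log2) in QGP-1 and -0.05 in BON-1 cells. Its calls over all genes were 668 lower and 6520 higher in QGP-1, against 2676 and 2610, and 2395 lower and 1410 higher in BON-1, against 2677 and 2488. The cause was not tested. ZNRF3 (0.40) and LGR5 (0.37) in QGP-1 cells, called on that scale, are to be read against that median. KREMEN1 in QGP-1 (-0.38) and FZD1 (0.30) and TNKS (0.32) in BON-1 cells lost their calls on it. KREMEN1 had means of 1.61 TPM with vehicle and 1.00 TPM with DOX there. At such low levels the 1 added to TPM draws a log2 fold change toward 0.

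The sources used here do not say whether replicate numbers pair the libraries. Correlations of deviations from group means were -0.04 to 0.07 for the same number and -0.13 to 0.09 for different numbers. With 3 libraries per group they cannot decide it, and the main fits treated the libraries as unpaired. With the number as a replicate block, the 10 genes gave 0 lower and 2 higher calls in QGP-1 and 2 and 3 in BON-1 cells, the other WNT genes 9 and 16 in QGP-1 and 18 and 13 in BON-1 cells, and the interaction 15. Depth limits DKK1 and SP5 in QGP-1 and AXIN2 in BON-1 cells, which had 1 to 32 counts per library.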
